A study of Rattus norvegicus with 4 samples.

Results

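The 40 genes described here are interferon-stimulated genes, sensors of double-stranded RNA and the STAT and IRF factors that act with them. They were taken by gene symbol from a table of 31038 rows, and 39 of the 40 had a row; Xaf1 was not matched and is not analysed here. Ribosome-protected fragments were counted per gene in 4 libraries of cultured rat myocardial cells labelled NRVM (commonly, neonatal rat ventricular myocytes), although the growth protocol gives embryonic heart muscle as their source. The si3m group (2 libraries) received an siRNA against eIF3m, a subunit of the translation initiation complex eIF3, and the siNT group (2 libraries) received a control siRNA. Both groups therefore carried a transfected double-stranded RNA, and cells without any siRNA were not analysed here. The strain of the rats, the siRNA sequences and the time of harvest are not stated in the labels. Separate cultures for the 2 libraries of a group are not stated either, and p-values therefore reflect the spread of these 4 libraries, which may be technical.

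Cells detect double-stranded RNA in the cytosol with the helicases encoded by Ddx58 (RIG-I) and Ifih1 (MDA5), which signal through Mavs on mitochondria to the factors Irf3 and Irf7. These switch on interferon genes, and secreted interferon acts through Ifnar1 and Ifnar2 on complexes of STAT and IRF proteins that bind the interferon-stimulated response element (ISRE) in the promoters of target genes. Several of the target genes encode proteins that stop translation, among them the kinase of Eif2ak2 (PKR), and an siRNA is itself a double-stranded RNA that such sensors can bind.

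The total count was 8687598 and 6726969 in si3m replicates 1 and 2 and 3924434 and 3835750 in siNT replicates 1 and 2. Values are CPM, the counts of a gene relative to the size of its library, with TMM, a scaling that assumes most rows do not change, so each value is a share of the footprints and not an amount per cell. A count of 0 allows up to 3 fragments (6 deposited counts, since most counts were even numbers), equal to 0.707 and 0.928 CPM in si3m and 1.49 and 1.52 CPM in siNT. Such limits and the intervals below cover counting error only. Eif3m, the target of the siRNA, had 138 and 191 CPM in si3m, against 532 and 451 CPM in siNT (log2 fold change -1.59, SE 0.11). That difference passed edgeR's quasi-likelihood test with an adjusted p of 3.41e-08, and with robust quasi-likelihood it missed the threshold (adjusted p = 0.0522). Among 18 cardiomyocyte markers, 8 had at most 6 counts in every library, Tnni3, Nppa and Myl7 had 0 in all, and the list summed to 120 to 146 CPM of the library total in si3m and 136 to 141 in siNT. The 12 fibroblast markers summed to 15706 to 15945 CPM in si3m and 11932 to 12012 in siNT. Of 12 macrophage and other leukocyte markers, 9 had at most 6 counts in every library, Aif1, Cd163 and Tyrobp had 0, and the list summed to 15.4 to 16.1 CPM in si3m and 32.1 to 37.0 in siNT. The 9 endothelial markers summed to 71.6 to 75.5 CPM in si3m and 65.2 to 66.7 in siNT, and the 6 smooth muscle markers to 3571 to 3580 CPM in si3m and 3222 to 3246 in siNT. The part of these shifts in the results was not tested.

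The interferon genes did not move in 1 direction. Of the 39 with a row, 29 had enough counts to be tested, and 8 of these were higher and 4 lower in si3m at an adjusted p under 0.05 (edgeR, Benjamini-Hochberg over all 12672 rows tested). Over all those rows, 14.0% were higher and 13.9% lower (1771 and 1757 rows), 27.8% in either direction; with total count scaling the split was 1428 higher and 2217 lower. Among the members tested the shares were 27.6% higher and 13.8% lower, so in this main test the share that fell was at the background. Isg15 and Ifi35, both among the 8, reached the count filter only through the si3m libraries, where they were high, so their being tested already required high si3m counts. Of the 27 other members tested, 6 were higher (22.2%) and 4 lower. The median log2 fold change of the 29 was 0.11, beside 0.02 over all rows tested, and 18 of the 29 were positive. In 24 of the 29 the 2 groups did not overlap in CPM, against 63.9% of all rows. In 15 both si3m libraries lay above both siNT libraries (32.6% of all rows), and in 9 both lay below (31.3%). Isg15 and Ifi35 are among the 15. Without them 22 of 27 did not overlap, 13 of these with si3m above, the median log2 fold change was 0.09 and 16 were positive. Rsad2, among the 9 and still among these 27, reached the count filter only through its siNT libraries, where it was higher. Summed over the 39 genes, footprints came to 1434 and 1431 CPM in si3m, against 1386 and 1366 CPM in siNT. The balance depended on the setting. With total count scaling 5 members were higher and 6 lower (17.2% and 20.7%, against 11.3% and 17.5% of all rows). With a stricter count filter 6 of 24 were higher and 6 lower (25.0% each, against 18.9% and 19.5% of all rows). In DESeq2 2 were higher and 2 lower, 6.90% each, against 9.46% and 10.5% of all rows. Without si3m replicate 1 it was also 2 and 2, 7.41% each, against 10.0% and 9.66% of all rows. In both of these the share of members higher was below the background, so the larger share of the main test did not hold there. Isg15 and Ifi35 were not tested without si3m replicate 1. The share stayed above the background with robust quasi-likelihood (27.6%, against 14.4% of all rows). With fragments in place of deposited counts it was 26.9%, against 16.1% of all rows. With libraries thinned to equal depth 5 were higher (19.2%, against 13.7% of all rows). The share of members lower was below the background without siNT replicate 1 and above it without siNT replicate 2. Each of these fits leaves 1 library in the siNT group. In bulk libraries such as these, fewer cells of a type and less RNA per cell cannot be told apart.

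**Figure D1:**
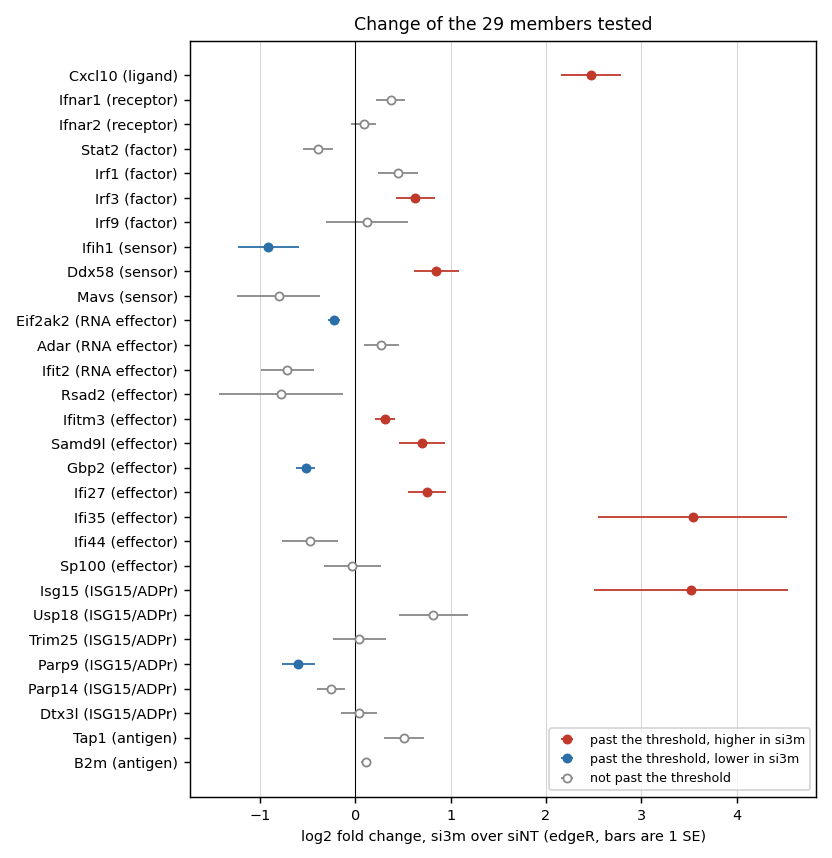
Log2 fold change of footprint abundance, si3m over siNT, for the 29 members tested (points, edgeR; bars are 1 SE), grouped from top to bottom by role. Filled points passed the threshold, 8 to the right of 0 and 4 to the left; Isg15 and Ifi35 stand farthest right with the widest bars.

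**Figure D2:**
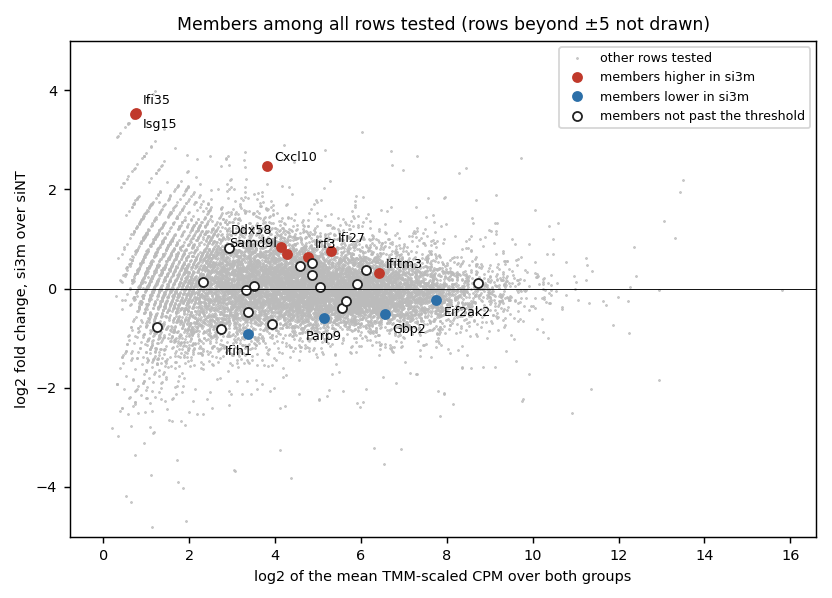
Each point is 1 of the 12672 rows tested, placed by mean level (x axis, log2 TMM-scaled CPM over both groups) and log2 fold change, si3m over siNT (y axis); 14 rows beyond a log2 change of 5 are not drawn. Cxcl10 (2.47) lies near the upper edge of the cloud of other rows, Isg15 and Ifi35 lie at its low-count end, and the other members lie inside it.

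The promoters of members that moved in opposite directions both carried the ISRE core. Promoters (250 bases before to 50 after the annotated gene start) were taken from RefSeq in the assembly GRCr8, which differs from the build of the counts, rn6, and 32 of the 40 members had one. The core, GAAA then any 2 bases then GAAA, or on the other strand TTTC, any 2 bases and TTTC, was found in 17 of these 32 (53.1%), against 3.92% of all 33469 promoters in the table. The members were chosen as genes of the interferon response, so this larger share does not bear on the effect of si3m. The core was present in 3 of 6 promoters of members that were higher in si3m (Cxcl10, Ifi27 and Ifitm3) and in 3 of 4 promoters of members that were lower (Gbp2, Ifih1 and Eif2ak2). Among members tested that did not pass the threshold, 6 of 14 held it. The NF-kB core, GGGA then any 2 bases then TTCC, or on the other strand GGAA, any 2 bases and TCCC, was found in 5 of the 32 (15.6%) and in 1.30% of all promoters. Those 5 were Cxcl10, Irf3, Ifitm3, Tap1 and B2m, that is 3 of the 6 promoters of higher members and none of the 4 of lower ones. The STAT site TTCNNNGAA, the same on both strands, was found in 7 of the 32 (21.9%), Ifitm3 being the only member past the threshold among them, and in 8.87% of all promoters. A match describes the letters of the window and does not show that a factor binds there. The stretches that hold the ISRE cores of the 6 called members follow, each read 5′ to 3′ on the strand of its gene, with ISRE and NF-kB cores in capitals. The Cxcl10 stretch is shown because it holds both kinds of core, the others because they set 3 genes that were lower beside 2 that were higher.
Cxcl10, chr14:15988816-15988975, plus strand: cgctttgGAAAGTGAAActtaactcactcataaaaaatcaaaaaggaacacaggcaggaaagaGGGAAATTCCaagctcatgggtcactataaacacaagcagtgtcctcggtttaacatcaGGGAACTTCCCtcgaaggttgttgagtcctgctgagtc
Ifi27, chr6:128355132-128355241, plus strand: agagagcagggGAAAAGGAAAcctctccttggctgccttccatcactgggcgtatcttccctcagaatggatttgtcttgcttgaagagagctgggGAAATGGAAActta
Ifitm3, chr1:205541773-205541822, minus strand: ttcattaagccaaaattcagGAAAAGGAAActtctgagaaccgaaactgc
Gbp2, chr2:234005667-234005716, plus strand: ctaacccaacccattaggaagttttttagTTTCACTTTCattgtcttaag
Ifih1, chr3:67683999-67684048, minus strand: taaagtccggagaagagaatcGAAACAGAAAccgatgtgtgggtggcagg
Eif2ak2, chr6:21941114-21941153, plus strand: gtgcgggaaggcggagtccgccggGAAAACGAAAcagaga
In the Cxcl10 stretch the ISRE core covers positions -243 to -234 from the gene start, and NF-kB cores begin at -187, -128 and -127, the last 2 being overlapping matches of the 2 orientations. Ifi27 carries 2 ISRE cores, which begin at -169 and -84. In Gbp2 the core is in the TTTC orientation, and in the 5 other stretches it is in the GAAA orientation.

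**Figure D3:**
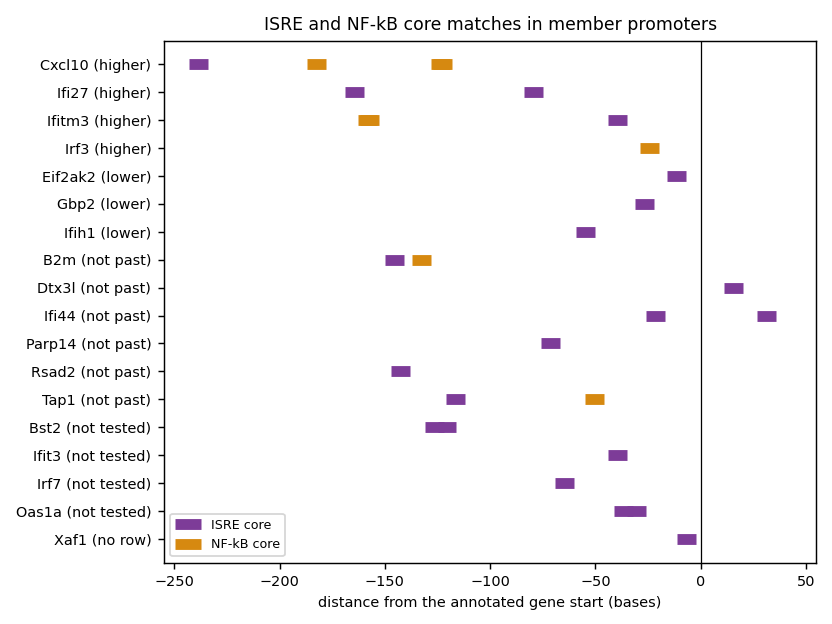
Position of ISRE and NF-kB core matches in the 18 member promoters that hold at least 1 (x axis, bases from the annotated gene start; rows are genes, with the call in parentheses). ISRE cores occur in rows of every call. NF-kB cores occur in 3 rows that were higher and 2 that were not past the threshold, and in no other row. Only 6 higher and 4 lower members had a promoter, and the difference between them was not tested.

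Cxcl10, an interferon-induced chemokine that attracts T cells, had the largest fold change of the tested members other than Isg15 and Ifi35, which were near 0 in siNT. It had 21.4 and 26.3 CPM in si3m, against 2.99 and 5.59 CPM in siNT. Both si3m libraries were above both siNT libraries, and the deposited counts behind the siNT values were only 12 and 22. The difference was 5.54-fold (log2 2.47, SE 0.32, edgeR adjusted p = 2.58e-05), and under the 14 alternative settings log2 lay between 2.09 and 2.99 with adjusted p at most 5.14e-05. In GRCr8 Cxcl10 overlaps Art3, an ADP-ribosyltransferase family gene, which had 0.942 and 0 CPM in si3m, against 0.996 and 4.57 CPM in siNT and too few counts to be tested. The counts of Art3 thus did not run in the direction of those of Cxcl10.

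The 2 chains of the type I interferon receptor did not pass. Ifnar1 had 84.1 and 71.5 CPM in si3m, against 49.8 and 70.6 CPM in siNT (log2 0.37, SE 0.15, adjusted p = 0.0814). Replicate 2 of si3m lay just above replicate 2 of siNT. Ifnar1 passed without siNT replicate 2 (log2 0.65) and without si3m replicate 2 (log2 0.49). It did not pass without siNT replicate 1 (log2 0.15) or without si3m replicate 1 (log2 0.26). Ifnar2 had 59.1 and 64.0 CPM in si3m, against 55.3 and 60.5 CPM in siNT, and the groups overlapped (log2 0.09, SE 0.13).

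Of the 5 transcription factors, Irf3 was higher in si3m, 3 did not pass and Irf7 had too few counts to be tested. Irf3, the latent factor switched on by the RNA sensors, had 33.7 and 32.5 CPM in si3m, against 24.9 and 17.8 CPM in siNT (1.55-fold, log2 0.63, SE 0.21, edgeR adjusted p = 0.0310). The siNT libraries differed more from each other than the si3m libraries did. Its call was lost when siNT replicate 2 was left out (log2 0.42, adjusted p = 0.167), likewise for si3m replicate 1 (0.1235) and si3m replicate 2 (0.0836), with total count scaling (0.0578) and in DESeq2 (0.0955). It overlaps Bcl2l12, which had 4.71 and 6.50 CPM in si3m, against 3.485 and 1.52 CPM in siNT (log2 1.14, adjusted p = 0.126), so reads of the 2 genes may be mixed. Stat2 and Irf9 are parts of ISGF3, the complex that binds the ISRE. Stat2 had 36.3 and 44.9 CPM in si3m, against 55.8 and 50.3 CPM in siNT, both si3m libraries below both siNT libraries (log2 -0.39, SE 0.16, adjusted p = 0.0759). It passed without siNT replicate 2 (log2 -0.46). It did not pass without siNT replicate 1 (log2 -0.31), si3m replicate 1 (-0.23) or si3m replicate 2 (-0.54). Irf9 did not pass (log2 0.13, SE 0.43, adjusted p = 0.862), at 5.18 and 5.26 CPM in si3m, against 4.98 and 4.57 CPM in siNT. Irf1, a factor induced by interferon gamma, had 29.4 and 25.4 CPM in si3m, against 20.4 and 19.8 CPM in siNT (log2 0.45, SE 0.21, adjusted p = 0.122). Irf7, which drives interferon genes, had deposited counts of 56 and 12 in si3m, against 2 and 4 in siNT. In fragments that is 34 in si3m and 3 in siNT, a ratio of 6.03 after scaling (95% interval 1.9 to 30.7), and most of the si3m fragments came from replicate 1. Tested without the low-count filter, Irf7 had an edgeR adjusted p of 0.0022. That fit gave some genes far smaller p-values than the main test (Eif3m 5.52e-127, against 3.41e-08). The value for Irf7 may therefore overstate the strength of its difference.

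The RNA helicases with measurable counts went in opposite directions. Ddx58, which encodes RIG-I, the sensor of short double-stranded RNA with a triphosphate end, had 24.0 and 21.2 CPM in si3m, against 11.95 and 13.2 CPM in siNT. The groups did not overlap (1.80-fold, log2 0.85, SE 0.24, edgeR adjusted p = 0.0135), though the call was lost when si3m replicate 1 was left out (log2 0.76, adjusted p = 0.111) or in DESeq2 (0.0554). Ifih1, which encodes MDA5, the sensor of long double-stranded RNA, had 5.89 and 8.66 CPM in si3m, against 14.9 and 12.2 CPM in siNT. It fell 1.88-fold (log2 -0.91, SE 0.32, adjusted p = 0.0430). Its call was lost without si3m replicate 1 (log2 -0.63, adjusted p = 0.323), without siNT replicate 1 (0.126), in DESeq2 (0.130) and with thinned counts (0.0930). The difference between these 2 changes was not tested. Mavs, the adaptor of both, had 4.24 and 5.57 CPM in si3m, against 11.95 and 5.08 CPM in siNT. The groups overlapped (log2 -0.80, SE 0.44, edgeR adjusted p = 0.194). Mavs passed without siNT replicate 2 (log2 -1.29), but without siNT replicate 1 its log2 was only -0.06. Dhx58 (LGP2), the third helicase of this family, had at most 6 counts in a library, which is too few to compare at this depth.

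Of 7 members grouped here as binding or modifying RNA (PKR, Adar, and the Oas and Ifit families), Eif2ak2 was lower in si3m, 2 did not pass and 4 had too few counts to be tested. Eif2ak2 encodes PKR, a kinase that binds double-stranded RNA and phosphorylates the initiation factor eIF2. It had 194 and 205 CPM in si3m, against 236 and 230 CPM in siNT, and the gap between the groups was wider than the spread within either. The difference was 1.17-fold (log2 -0.23, SE 0.063, edgeR adjusted p = 0.0142) and lost its call when si3m replicate 1 (adjusted p = 0.175) or siNT replicate 1 (0.0602) was left out, in DESeq2 (0.0631) and with thinned counts (0.0617). Prkra, outside the 40, encodes PACT, a protein activator of PKR, and had 35.6 and 43.3 CPM in si3m, against 13.9 and 22.9 CPM in siNT (2.14-fold, log2 1.10, SE 0.23, adjusted p = 0.0018). Adar, which edits adenosines in double-stranded RNA, had 29.7 and 33.7 CPM in si3m, against 25.9 and 26.4 CPM in siNT, without passing (log2 0.27, SE 0.19). The Ifit proteins bind viral RNA, and human and mouse forms are known to bind eIF3. Ifit2 had 14.4 and 8.66 CPM in si3m, against 20.4 and 17.8 CPM in siNT, both si3m libraries below both siNT libraries (log2 -0.71, SE 0.28, adjusted p = 0.0697). It passed without siNT replicate 2 (log2 -0.80) and without si3m replicate 1 (log2 -1.13). It did not pass without siNT replicate 1 (log2 -0.60) or without si3m replicate 2 (log2 -0.40). Ifit1 had deposited counts of 14 and 6 in si3m, against 8 and 6 in siNT, and Ifit3 had 4 and 2 in si3m, against 8 and 4 in siNT. Ifit1 overlaps its relative Ifit1bl, which may share reads with it and had 5.65 and 6.19 CPM in si3m, against 6.97 and 20.3 CPM in siNT (log2 -1.20, SE 0.41, adjusted p = 0.0414). The oligoadenylate synthase Oas1a, whose product activates RNase L, had 0 counts in both si3m libraries and 2 in each siNT library, too few for a difference to be detectable at this depth. Its catalytically inactive relative Oasl had 38 and 12 counts in si3m, against 0 and 2 in siNT. In fragments this is 25 in si3m and 1 in siNT, a ratio of 13.3 (95% interval 2.18 to 546). Its edgeR adjusted p was 0.0018 without the low-count filter, a fit that gave some genes far smaller p-values than the main test.

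**Figure D4:**
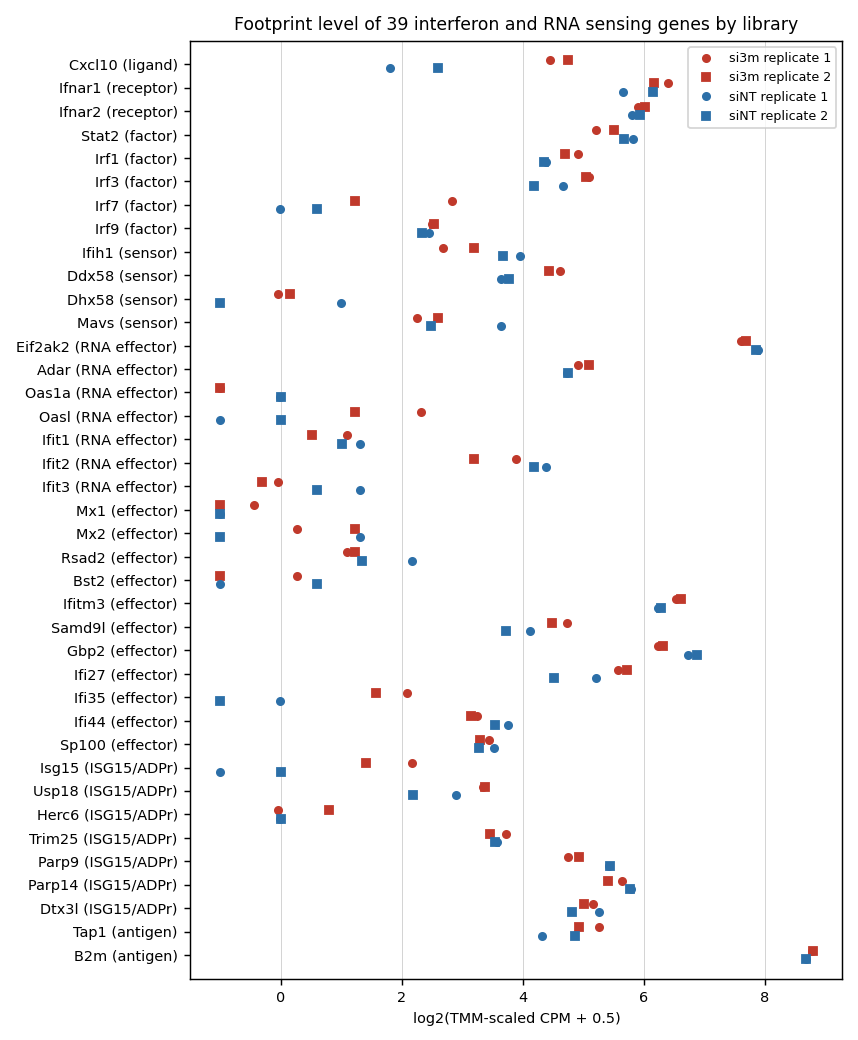
Footprint level of the 39 members in each library (x axis, log2 of TMM-scaled CPM plus 0.5; si3m points above siNT points in each row, circles for replicate 1 and squares for replicate 2). The si3m and siNT points of Cxcl10 and Gbp2 stand apart in opposite directions, and Mx1, Bst2, Dhx58 and Oas1a have at most 6 counts in every library.

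Of the 12 other antiviral effectors, 8 were tested, 4 of them higher and 1 lower in si3m, beside 14.0% and 13.9% of all rows. Ifi35, among the 4, reached the count filter only through its si3m libraries. Ifi27, which encodes a small interferon-induced membrane protein, had 46.9 and 52.3 CPM in si3m, against 36.3 and 22.4 CPM in siNT (1.68-fold, log2 0.75, SE 0.20, edgeR adjusted p = 0.00977). The siNT libraries were far apart, and without siNT replicate 2 the change was smaller and did not pass (log2 0.45, adjusted p = 0.0616). Samd9l, whose human form restrains translation, had 26.1 and 22.0 CPM in si3m, against 16.9 and 12.7 CPM in siNT (1.63-fold, log2 0.70, SE 0.24, adjusted p = 0.0376). Its groups did not overlap, and its call was lost without si3m replicate 1 (adjusted p = 0.245), without siNT replicate 2 (log2 0.52, adjusted p = 0.133), in DESeq2 (0.122) and with total count scaling (0.0643). Ifitm3, which blocks the fusion of viruses with endosomes, had 91.6 and 96.8 CPM in si3m, against 74.7 and 77.2 CPM in siNT. The rise was small beside that of Cxcl10 (1.24-fold, log2 0.31, SE 0.11, adjusted p = 0.0386). It missed the threshold when siNT replicate 1 (adjusted p = 0.0916), si3m replicate 1 (0.0844) or si3m replicate 2 (0.217) was left out, with total count scaling (0.120), with thinned counts (0.106) or in DESeq2 (0.152). Its close relative Ifitm2, outside the 40, can share reads with it and had 22.6 and 26.3 CPM in si3m, against 17.9 and 10.7 CPM in siNT (log2 0.77, SE 0.26, adjusted p = 0.0362), a call lost without siNT replicate 2 (log2 0.45, adjusted p = 0.196), without si3m replicate 2 (0.150), with total count scaling (0.0594), with thinned counts (0.0564) and in DESeq2 (0.0982).

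Gbp2, a guanylate-binding protein that acts on intracellular pathogens, was the effector that fell. It had 74.9 and 79.5 CPM in si3m, against 105 and 116 CPM in siNT. Every si3m value was well below every siNT value (1.435-fold lower, log2 -0.52, SE 0.10, edgeR adjusted p = 0.00126). Under the 14 alternatives log2 lay between -0.60 and -0.44 and adjusted p was at most 0.00885, and besides Cxcl10 no other called member kept its call under all of them. Ifi35, which encodes a leucine zipper protein, had deposited counts of 32 and 16 in si3m, against 2 and 0 in siNT. That is 24 fragments in si3m and 1 in siNT, a ratio of 12.8 after scaling (95% interval 2.08 to 525). The edgeR adjusted p was 0.0145 (log2 3.54). The call was lost without siNT replicate 2 (log2 2.62), without si3m replicate 2 (log2 3.80) and in DESeq2 (adjusted p = 0.0531). Ifi35 reached the count filter only through its si3m libraries and had a value under only 10 of the 14 alternatives. Rsad2 (viperin), Ifi44 and Sp100, a protein of nuclear bodies, did not pass. Ifi44 had 8.95 and 8.35 CPM in si3m, against 12.9 and 11.2 CPM in siNT, both si3m libraries below both siNT libraries (log2 -0.48, SE 0.29). Rsad2 had 1.65 and 1.86 CPM in si3m, against 3.98 and 2.03 CPM in siNT, and Sp100 had 10.4 and 9.28 CPM in si3m, against 10.9 and 9.15 CPM in siNT. Of these 3 genes Rsad2 reached the count filter only through its siNT libraries. The GTPases Mx1 and Mx2, among the best known interferon-induced proteins, had at most 2 and at most 12 counts in a library, and Bst2 (tetherin) had at most 6.

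The ubiquitin-like protein Isg15, which is joined to other proteins during an interferon response, had deposited counts of 34 and 14 in si3m, against 0 and 2 in siNT. That is 24 fragments in si3m and 1 in siNT, a ratio of 12.8 after scaling (95% interval 2.08 to 525). Both si3m libraries were above both siNT libraries, at 4.004 and 2.17 CPM, against 0 and 0.508 CPM in siNT. The edgeR adjusted p was 0.0165 (log2 3.52), and the call was lost without siNT replicate 1 (log2 2.58) and in DESeq2 (adjusted p = 0.0572). Isg15 reached the count filter only through its si3m libraries, where it was high. It had a value under only 10 of the 14 alternatives. Usp18, the protease that removes Isg15 from proteins, had 9.66 and 9.90 CPM in si3m, against 6.97 and 4.07 CPM in siNT (log2 0.82, SE 0.36, adjusted p = 0.110). It passed without siNT replicate 1 (log2 1.27) and did not pass without siNT replicate 2 (log2 0.49). Herc6, a ligase for Isg15 in mouse, had at most 8 counts in a library. Trim25, a ubiquitin ligase that acts with RIG-I in human cells, did not pass (adjusted p = 0.929), at 12.7 and 10.5 CPM in si3m, against 11.45 and 11.2 CPM in siNT, its log2 of 0.04 turning negative with total count scaling and without si3m replicate 1.

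Parp9 and Dtx3l encode partners in 1 complex, a member of the ADP-ribosyltransferase family and a ubiquitin ligase. Parp9 had 26.4 and 30.0 CPM in si3m, against 42.3 and 42.7 CPM in siNT, the siNT libraries agreeing closely and both lying above si3m. It fell 1.51-fold (log2 -0.60, SE 0.17, edgeR adjusted p = 0.0150), a call lost without si3m replicate 1 (log2 -0.49, adjusted p = 0.158). Dtx3l had 35.3 and 31.6 CPM in si3m, against 37.8 and 27.4 CPM in siNT, with overlapping groups (log2 0.04, SE 0.19), a sign that turned with total count scaling, with thinned counts, without siNT replicate 2 and without si3m replicate 1. The 2 genes overlap in GRCr8 and the strand setting of the counting is not stated in the labels, so their reads cannot be fully told apart. Parp14, a further ADP-ribosyltransferase, had 49.3 and 42.1 CPM in si3m, against 54.8 and 54.4 CPM in siNT, and did not pass (log2 -0.25, SE 0.14, adjusted p = 0.221).

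Both members of antigen presentation were higher in each si3m library than in either siNT library, without passing. Tap1, a chain of the peptide transporter, had 37.9 and 30.0 CPM in si3m, against 19.4 and 28.5 CPM in siNT (log2 0.51, SE 0.21, edgeR adjusted p = 0.0907). Tap1 passed without siNT replicate 2 (log2 0.82) and did not pass without siNT replicate 1 (log2 0.27). B2m, the light chain of class I molecules, had the smallest SE of the members, at 438 and 442 CPM in si3m, against 408 and 407 CPM in siNT. Its log2 of 0.11 (SE 0.053) missed the threshold (adjusted p = 0.140).

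Other genes of the same pathways were called in 24.3% of cases, against 27.8% of all rows. In a list of 95 such genes 93 had a row and 70 were tested. Of these 11 were higher (15.7%) and 6 lower (8.57%) in si3m, beside 14.0% and 13.9% of all rows. Oas1b, counted among the 11 and among the effectors that were higher, reached the count filter only through its si3m libraries. It had 20 and 14 deposited counts there, against 0 and 2 in siNT, so its being tested already required high si3m counts. With total count scaling or in DESeq2 7 of the 70 were higher, beside 11.3% and 9.46% of all rows, so this number is near the background. No interferon gene of the 4 looked for (Ifnb1, Ifna4, Ifng and Ifnl3) had a single count in any library. Of 23 tested sensors and signalling proteins 1 was higher and 1 lower, of 32 tested effectors 7 were higher and 1 lower, and of 15 tested receptors, kinases and STAT-related genes 3 were higher and 4 lower.

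The receptor for interferon gamma and its kinases divided. Ifngr1 and Ifngr2 encode its 2 chains. Ifngr2 had 41.2 and 35.6 CPM in si3m, against 21.4 and 16.3 CPM in siNT (2.04-fold, log2 1.03, SE 0.20, edgeR adjusted p = 0.0012), and Ifngr1 had 58.9 and 67.8 CPM in si3m, against 36.8 and 41.2 CPM in siNT (1.62-fold, log2 0.70, SE 0.15). Jak1, the kinase common to both interferon receptors, had 242 and 230 CPM in si3m, against 193 and 185 CPM in siNT (1.25-fold, log2 0.32). Jak2, its partner at the interferon gamma receptor, went the other way, with 58.9 and 69.6 CPM in si3m, against 90.6 and 98.1 CPM in siNT (log2 -0.56, SE 0.12, adjusted p = 0.00232). Il10rb, a chain shared with the interferon lambda receptor, had 27.1 and 31.2 CPM in si3m, against 42.8 and 50.3 CPM in siNT (log2 -0.68, SE 0.17), a call lost without si3m replicate 1 (adjusted p = 0.0768). The groups did not overlap for any of these 5 genes, which were named for their small p, nor in 63.9% of all rows. Irf2bp2, a corepressor that binds IRF2, fell with log2 -0.36.

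The helicase Ddx3x, which takes part in both translation and RNA sensing, had 1157 and 1145 CPM in si3m, against 1356 and 1403 CPM in siNT (1.20-fold lower, log2 -0.26, SE 0.038, edgeR adjusted p = 1.04e-04). Lgals3bp, a secreted glycoprotein induced by interferon, had 44.5 and 40.8 CPM in si3m, against 19.4 and 21.3 CPM in siNT (2.10-fold, log2 1.07, SE 0.18). Daxx, a partner of PML in nuclear bodies, rose with log2 0.80, and Trim5, a restriction factor of retroviral capsids, fell with log2 -0.54. The call of Trim5 was lost without si3m replicate 2 (adjusted p = 0.0675), that of Daxx under none of the alternatives. Tapbp (tapasin), which loads peptides onto class I molecules, had 17.55 and 13.6 CPM in si3m, against 8.46 and 5.08 CPM in siNT (2.30-fold, log2 1.20, SE 0.32, adjusted p = 0.00957). Its call was lost when si3m replicate 1 was left out (adjusted p = 0.09175). Psme1 and Psme2, the chains of the proteasome activator PA28, rose with log2 0.52 and 0.85. Without si3m replicate 2 neither passed (adjusted p = 0.146 and 0.120), nor without si3m replicate 1 (0.0830 and 0.199), and Psme1 was lost without siNT replicate 2 (0.06305) and Psme2 without siNT replicate 1 (0.0593). Both were also lost with total count scaling (0.0524 and 0.0588) and in DESeq2 (0.0903 and 0.164).

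**Figure D5:**
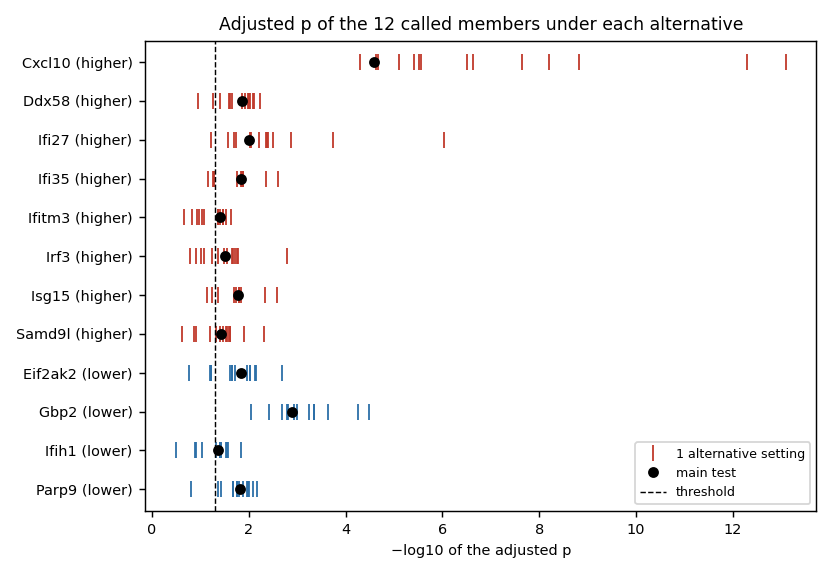
Adjusted p of the 12 called members, as −log10 (x axis), in the main test (black points) and under each alternative setting (ticks, red for members higher in si3m and blue for members lower); the dashed line is the threshold of 0.05. All ticks of Cxcl10 and Gbp2 lie right of the line, and each of the other 10 members has at least 1 tick left of it.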

How the data were processed

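The files hold counts deposited by the authors, whole-number footprint counts per gene symbol with no normalization, 1 file for each of 4 libraries. Per the labels' protocols, ribosomes were stalled with cycloheximide and monosome and polysome fractions were collected. Tools named per the submitters' processing notes are featureCounts, HISAT2 2.2.1, Trimmomatic 0.40, DESeq2 and limma, with rn6 as the build. Their roles, the annotation, the strand setting and the handling of multiply mapped reads are not stated there. Between 94.9% and 97.3% of counts above 0 were even, so counting error was judged on fragments (counts divided by 2). No matched RNA libraries were used, so translational efficiency is not given.

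All rows were fitted in edgeR 4.0.16 (R 4.3.3): filterByExpr with a minimum count of 10, TMM, glmQLFit and glmQLFTest, two-sided, Benjamini-Hochberg, threshold 0.05. Ratios of low genes have exact conditional binomial intervals. DESeq2 1.42.0 and 13 other settings were alternatives. The members and lists were chosen with earlier results of these data known. All members are accounted for, and of the other pathway genes the 15 called with the smallest p are named. Art3, Bcl2l12 and Ifit1bl were named because they overlap members, and Oas1b because it reached the count filter only through si3m. Ddx58 and Samd9l were matched to RefSeq by older symbols. The 8 members with no promoter sequence used were Ddx58, Dhx58, Adar, Ifit1, Ifit2, Mx2, Isg15 and Usp18. Levels were not compared between genes, since coding lengths were not used here. Replicate numbers share no stated culture and were not a block.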

Additional observations from a re-analysis of the deposited data

How the results depend on the processing

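The median log2 fold change of the members tested stayed between 0.03 (total count scaling) and 0.19 (without siNT replicate 1). The number of members higher in si3m, 8 of 29, was 5 with total count scaling and with thinned counts, 2 in DESeq2 (6.90%, against 9.46% of all rows), and between 2 (without si3m replicate 1, 7.41%, against 10.0%) and 8 with 1 library left out. The number lower, 4, was 6 with total count scaling (20.7%, against 17.5% of all rows) and 6 with the stricter filter (25.0%, against 19.5%). It was 2 in DESeq2 (6.90%, against 10.5%). With 1 library left out, the share lower ranged from below the background (without siNT replicate 1) to above it (without siNT replicate 2). Among the other pathway genes, 7 of 70 instead of 11 were higher with total count scaling and in DESeq2, beside 11.3% and 9.46% of all rows. Of the 12 called members 2 kept their call under every alternative run and 10 lost it under at least 1, none turning sign; Isg15 and Ifi35 had a value under 10 of the 14 alternatives, being below the count filter in the others. Of the 17 that did not pass, 6 passed under at least 1 alternative. Signs turned for Sp100 (-0.03 in the main test, -0.15 to 0.11 with 1 library left out, positive without siNT replicate 1 and without si3m replicate 2 at 0.05), Trim25 (-0.036 with total count scaling, -0.093 to 0.18 with 1 library left out, negative without si3m replicate 1) and Dtx3l (-0.043 with total count scaling, -0.028 with thinned counts, -0.17 to 0.29 with 1 library left out, negative without siNT replicate 2 and without si3m replicate 1). The cause was not tested. With the replicate block 9 members were higher and 5 lower (31.0% and 17.2%, against 14.6% and 14.5% of all rows). Ifnar1 and Ifit2 were added (edgeR adjusted p = 0.0394 and 0.0347). Equal replicate numbers did not deviate together (correlation -0.022 over 12672 rows). Counting error in rows of low count pulls such a value toward 0, so it cannot show whether the numbers pair the libraries. Without the low-count filter 11 of 39 members were higher (28.2%, against 10.4% of all rows). In that fit some p-values were far smaller than in the main test, as given above for Eif3m. Libraries of si3m were deeper, which cannot be told apart from the group, and low counts left 10 members untested.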

Other observations

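The class I heavy chain rows RT1-A1 and RT1-A2, chosen after their values were seen, were split unlike the other rows of antigen presentation. RT1-A1 had 17.1 CPM in si3m replicate 1 and 63.1 CPM in replicate 2, against 13.9 and 26.2 CPM in siNT replicates 1 and 2. RT1-A2 had 42.4 and 11.8 CPM in the same si3m libraries, against 15.9 and 16.8 CPM in siNT. The 2 rows thus exchanged their order between the si3m libraries, with deposited counts of 145 and 408 for RT1-A1 and 360 and 76 for RT1-A2. Their sum was 59.5 and 74.9 CPM in si3m, against 29.9 and 42.9 CPM in siNT, with no overlap between the groups. The genes are near-identical, reads may be assigned to either, and neither row passed edgeR's test on its own (adjusted p = 0.113 and 0.191).

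The low-count members that stood out in si3m leaned on replicate 1. Irf7, Oasl, Isg15 and Ifi35, chosen after their values were seen, had 6.59, 4.475, 4.004 and 3.77 CPM in si3m replicate 1 and 1.86, 1.86, 2.17 and 2.475 CPM in si3m replicate 2. Over the 29 members tested, 14 were higher in si3m replicate 1 than in replicate 2, beside 49.5% of all rows.

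Among the leukocyte markers, Adgre1, chosen after its values were seen, had 4 and 0 deposited counts in si3m, against 24 and 34 in siNT. Ptprc, which marks all leukocytes, had at most 4 counts in a library.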
